A study of Mus musculus with 10 samples.

Results

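The machinery that degrades messenger RNA in the cytoplasm was followed in the testes of Dis3 conditional knockout mice, as 37 genes chosen by their known roles, with no threshold on a measured value but with earlier results of these data known. All 37 were found among the 54232 genes of the count table, and all 37 were among the 20043 genes with enough reads to be tested. They comprised 3 genes of the SKI complex, 2 of ribosome rescue, 11 of the CCR4-NOT complex, 3 of PAN2-PAN3 and PARN, 7 of decapping, the 5′ exonuclease gene Xrn1, and 10 of nonsense-mediated decay and translation termination.

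Bulk RNA-seq compared 5 Dis3 cKO testis libraries, labelled Dis3 KO, with 5 control libraries, labelled Dis3 WT, all from mice at postnatal day 4. The cKO males carried 1 floxed and 1 deleted Dis3 allele together with the Ddx4-Cre transgene, which is active in germ cells, and the controls were their siblings. Somatic cells of the cKO testis therefore kept a floxed allele that Cre does not act on. The labels give the strain as B6D2F1 for both groups, and each library came from both testes of 1 mouse, so that germ cells and somatic cells were measured together.

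DIS3 is a catalytic ribonuclease of the RNA exosome and acts mainly in the nucleus, whereas the products of the 37 genes act on mRNA in the cytoplasm. In that pathway the poly(A) tail is first shortened by PAN2-PAN3 and CCR4-NOT, the cap is then removed by DCP2 with its activators, and the body is degraded by XRN1 from the 5′ end or by the cytoplasmic exosome, to which the SKI complex feeds RNA, from the 3′ end. Nonsense-mediated decay (NMD) recognises transcripts on which translation ends too early, through UPF1 and its partners, and the SMG proteins turn that recognition into cleavage or decay. Roles named here are those of the mammalian proteins, known largely from human cells.

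Gene counts totalled 28538849 to 37739906 per cKO library and 35391042 to 41104912 per control library. The targeted gene itself served as a check of the labels: Dis3 averaged 1494 ± 167.2 normalized counts in Dis3 cKO testes and 4596 ± 491.2 in controls (SD, n = 5 each). The groups did not overlap, and the log2 fold change was -1.62 ± 0.09 (SE, adjusted p = 3.78e-07). Germ cell, Sertoli, Leydig, myoid, stromal and endothelial markers were all detected in every library. The 8 germ cell markers summed to 12049-15957 normalized counts in cKO libraries and 16147-20152 in controls. Of the 8, 6 had a log2 fold change below 0 and 2, Dazl and Tex101, fell past the threshold. Most of the difference in these sums came from Dazl alone, which averaged 5266 in cKO and 8398 in control testes. The groups were apart only for Dazl and Tex101. Markers of other cell types were called too: Cyp17a1 (Leydig) was lower, at a log2 fold change of -0.40 (adjusted p = 0.0271), and Myh11 (myoid) and Cdh5 (endothelial) were higher, at 0.52 and 0.31 (adjusted p = 0.0265 and 0.0389). In both genotypes, replicates 1 to 3 and replicates 4 and 5 formed separate clusters of libraries that no label names. Between the genotypes, deviations from the group means correlated on average at 0.136 for the same replicate number. The mean was 0.101 for different numbers of the same cluster and -0.122 across clusters. Such deviations cancel out within a group, so the opposite signs are not independent. The cKO libraries 4 and 5 had the lowest germ cell sums (12429 and 12049) and the highest stromal sums (276369 and 284072). Control libraries 4 and 5 went the other way, with the highest germ cell sums (20152 and 19928) and the lowest stromal sums (123100 and 123030). Single markers did not all follow these sums. Among the controls, Col1a1 (53193 and 54141) and Tcf21 were lowest in libraries 4 and 5, whereas Dcn and Pdgfra were highest there. Likewise Dazl and Ddx4 were highest there, whereas Sall4, Gfra1, Zbtb16, Tex101 and Dnd1 were lowest. The genotypes thus differed most in these marker sums in replicates 4 and 5. In a whole organ, fewer cells of a type and less RNA per cell cannot be told apart.

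The sequences around the transcription starts are shown first, because the second readout described here is antisense RNA made just upstream of them. RefSeq windows of 300 bases (GRCm38.p6, 250 before to 50 after the start) were matched by symbol for 28 of the 37 genes. The RefSeq start lay 2181 bases downstream of the gene start used for the counts for Cnot6l, 975 for Cnot2 and 709 for Cnot11. For the other genes it lay at most 76 bases away (Cnot8). The 4 printed below are those of Upf2 and Smg9, whose upstream RNA was called higher in cKO testes, of Parn, whose upstream RNA was not called, and of Smg8, whose mRNA fell furthest. Every CG dinucleotide is in capitals.
Upf2, chr2:5951219-5951518, plus strand: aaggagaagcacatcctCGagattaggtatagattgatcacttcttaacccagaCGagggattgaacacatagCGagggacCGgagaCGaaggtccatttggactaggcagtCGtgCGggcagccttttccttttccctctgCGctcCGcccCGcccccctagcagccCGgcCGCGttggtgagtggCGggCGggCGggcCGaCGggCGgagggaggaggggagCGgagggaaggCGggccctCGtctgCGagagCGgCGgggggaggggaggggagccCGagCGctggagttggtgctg
Smg9, chr7:24399378-24399677, plus strand: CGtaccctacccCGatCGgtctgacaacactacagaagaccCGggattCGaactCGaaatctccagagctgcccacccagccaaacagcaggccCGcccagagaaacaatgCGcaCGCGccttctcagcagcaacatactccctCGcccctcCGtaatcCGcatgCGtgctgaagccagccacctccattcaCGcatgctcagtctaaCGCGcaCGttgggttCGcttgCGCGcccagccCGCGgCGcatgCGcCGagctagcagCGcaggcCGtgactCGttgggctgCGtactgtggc
Parn, chr16:13668121-13668420, minus strand: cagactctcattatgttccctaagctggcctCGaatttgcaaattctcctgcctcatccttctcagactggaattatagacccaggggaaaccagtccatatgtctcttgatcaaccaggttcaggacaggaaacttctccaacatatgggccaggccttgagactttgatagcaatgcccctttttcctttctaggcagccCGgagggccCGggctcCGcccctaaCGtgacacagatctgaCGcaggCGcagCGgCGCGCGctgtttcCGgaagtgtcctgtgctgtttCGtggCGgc
Smg8, chr11:87086728-87087027, minus strand: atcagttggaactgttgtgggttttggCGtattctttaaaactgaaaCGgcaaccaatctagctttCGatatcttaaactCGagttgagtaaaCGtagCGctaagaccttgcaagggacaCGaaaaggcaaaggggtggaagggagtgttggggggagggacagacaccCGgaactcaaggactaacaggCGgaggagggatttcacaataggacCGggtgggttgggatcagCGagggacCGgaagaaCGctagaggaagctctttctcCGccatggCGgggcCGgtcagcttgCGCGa

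The printed windows held 27 CG dinucleotides for Upf2, 30 for Smg9, 14 for Parn and 18 for Smg8. Over the 28 windows the median was 27.5 CG dinucleotides (range 8 to 49) and 63.5% G and C, and the ratio of observed to expected CG was 0.883. The medians were 20 CG dinucleotides, 60.7% and 0.740 over 11665 windows of protein-coding genes with a mean of at least 10 counts, and 7, 52.7% and 0.384 over all 32851 windows. Both strands were searched for 4 short motifs, and in these 28 windows no hit of one overlapped a hit of another. The ETS core CCGGAAG was present in 7 of the 28 windows (25% against 16.4% of the coding set and 8.86% of all windows), including that of Smg8 and that of Parn. The NRF1 motif, searched as GCGCA followed directly by TGCGC, was present in 3, those of Hbs1l, Upf1 and Smg9 (10.7% against 1.89% and 0.971%). The TATA box TATAAA was in none (0% against 7.78% and 13.6%), and CCAAT was in 8 (28.6% against 38.7% and 37.4%), Smg8 and Cnot6 among them. These matches describe the letters of the windows only.

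In control testes all 37 genes were expressed above the median of the genes tested. Levels are given here as RPKM, read counts divided by library size and by the length listed for the gene with the counts. That length is the gene's annotated length and not that of the transcripts present. Comparisons of level between genes therefore depend in part on the annotation. The 37 control means lay between 3.55 RPKM for Smg9 and 52.8 RPKM for Etf1, that is, between the level below which 51.7% and that below which 95.5% of tested genes fell, and the median tested gene stood at 3.22 RPKM. Etf1 encodes the factor that recognises all stop codons, and its mRNA was the highest of the NMD and termination group, with 46.0 ± 1.08 RPKM in cKO and 52.8 ± 2.95 RPKM in control testes (SD, n = 5 each). Smg9 was the lowest of that group, with 3.77 ± 0.609 RPKM in cKO and 3.55 ± 0.315 RPKM in control testes.

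Subunits of 1 complex differed widely in level per annotated length. Within CCR4-NOT, Cnot2, which encodes a structural subunit of the NOT module, was highest at 34.1 ± 2.95 RPKM in cKO and 35.4 ± 2.36 RPKM in control testes. Cnot10 was lowest, at 5.53 ± 0.287 RPKM in cKO and 6.34 ± 0.602 RPKM in control testes, although its protein forms a module with that of Cnot11, which stood at 23.1 ± 0.929 RPKM in cKO and 25.9 ± 0.481 RPKM in control testes. Within the decapping group, Ddx6, which encodes an RNA helicase of P-bodies, was highest at 33.3 ± 0.836 RPKM in cKO and 31.8 ± 2.44 RPKM in control testes, and Dcp1b was lowest at 4.43 ± 0.159 RPKM in cKO and 4.22 ± 0.177 RPKM in control testes.

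The SKI complex ranged similarly, with Skic8, a WD-repeat subunit, at 14.3 ± 0.834 RPKM in cKO and 16.9 ± 2.44 RPKM in control testes. Skic3, its scaffold, was at 3.62 ± 0.464 RPKM in cKO and 3.56 ± 0.300 RPKM in control testes. The remaining groups were narrow: control means were 8.49 RPKM for Parn and 7.41 RPKM for Pan2, 5.94 RPKM for Pelo and 5.51 RPKM for Hbs1l, and 5.29 RPKM for Xrn1.

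**Figure D1:**
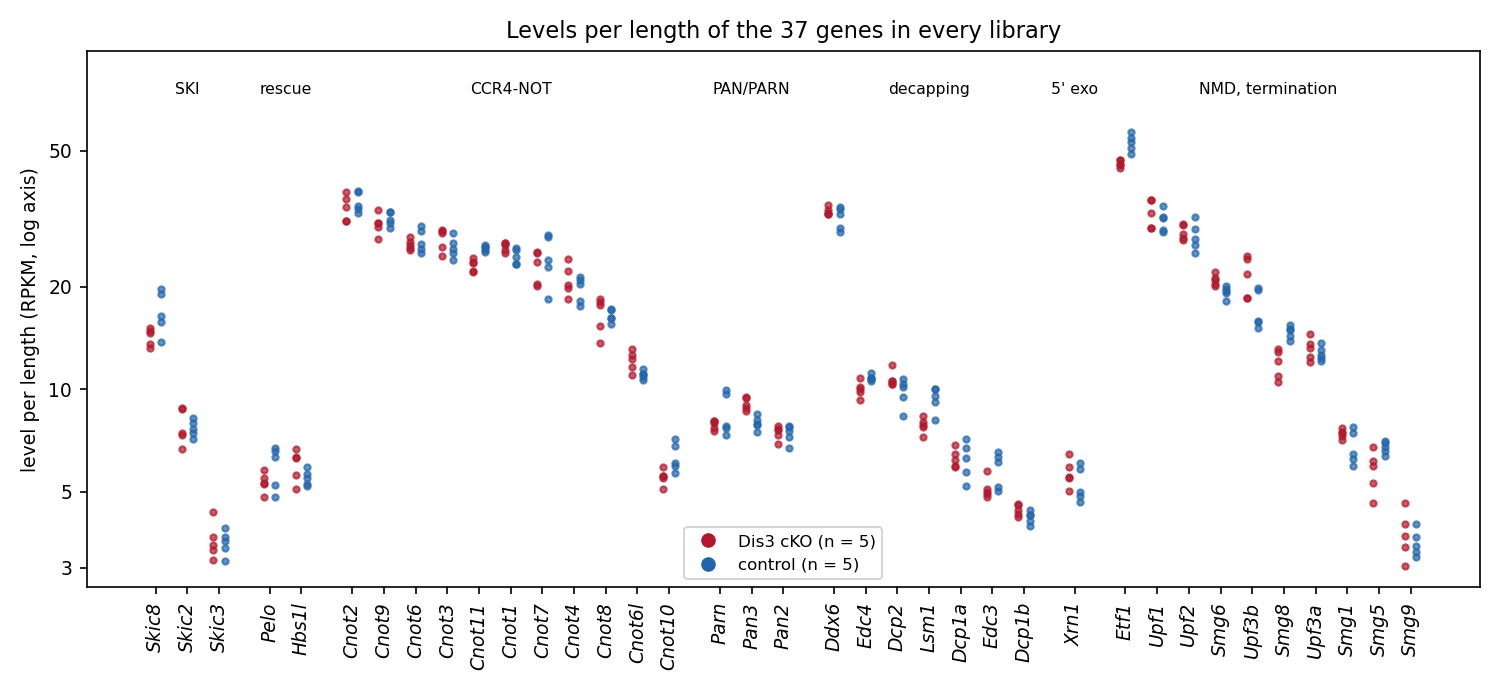
Level per length (RPKM, log axis) of each of the 37 genes in every library, by complex and ordered within it by the control mean, with 5 Dis3 cKO libraries on the left (red) and 5 controls on the right (blue) of each gene. The 2 genotypes lie almost on top of each other for most genes, while subunits of 1 complex differ up to several-fold, as for Cnot2 (35.4 RPKM in controls) and Cnot10 (6.34 RPKM).

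The main question was whether mRNAs of this machinery changed in the Dis3 cKO testis. Of the 37 genes, 0 were called higher and 2, Smg8 and Etf1, were called lower (edgeR quasi-likelihood test, Benjamini-Hochberg adjusted p under 0.05 over 20043 genes). Those 2 are 5.41% of the 37, whereas 3.48% of all tested genes were called lower, 4.42% higher and 7.90% in either direction. Among the 10516 genes counted at least as strongly as the least counted of the 37, 6.01% were called higher and 5.13% lower. At an unadjusted p under 0.05, 3 of the 37 were higher and 7 lower, against 11.8% and 12.1% of all tested genes and 15.2% and 16.7% of those 10516. DESeq2 called 2 higher, Pan3 and Upf3b, and the same 2 lower, against 1307 genes higher and 931 lower over the whole table. With library cluster as a term in the edgeR fit, 2 were higher (Pan3 and Upf3b) and 5 lower (Smg8, Etf1, Lsm1, Cnot11 and Skic8), and over all tested genes 1772 were then higher and 1669 lower, against 885 and 698 without the term. In replicates 4 and 5 alone 3 were higher and 7 lower, against 2361 and 2360 over all genes, so that calls there were common in general. In replicates 1 to 3 alone 2 were higher and 0 lower, against 976 and 557. The genes tested were chosen anew with DESeq2 and in each cluster alone, so those totals are not shares of the 20043.

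All 37 log2 fold changes lay between -0.30 and 0.32, a range that also held 87.1% of those 10516 genes. Of the 37, 18 were within 0.1 of 0 and 31 within 0.2, with standard errors from 0.055 to 0.116. The median was 0.02, against -0.01 over all tested genes, and 15 were below 0 (52.0% of all tested genes were below 0). The groups did not overlap for 5 genes, with cKO libraries lower for Cnot11, Smg8 and Etf1 (4.31% of all tested genes) and higher for Pan3 and Smg6 (4.59%).

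**Figure D2:**
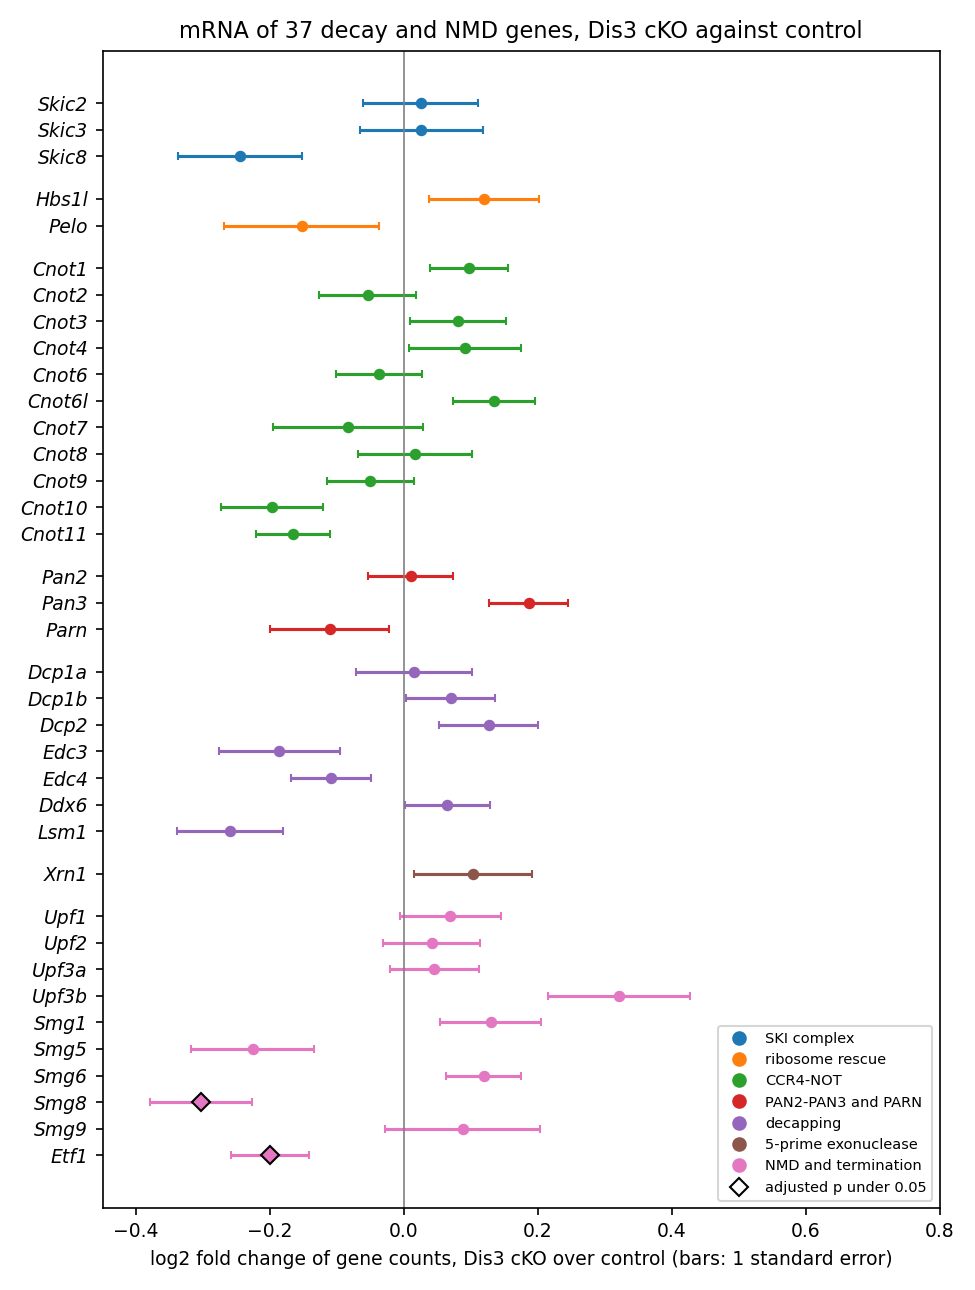
Log2 fold change of gene counts, Dis3 cKO over control, with 1 standard error, for the 37 genes by complex (5 libraries per group). Diamonds with black edges stand for Smg8 (-0.30) and Etf1 (-0.20), whose adjusted p was under 0.05; all other points are circles and lie between -0.26 and 0.32.

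Within NMD and termination, 2 of 10 genes fell (3.48% of all tested genes and 5.13% of those 10516 were lower), 0 rose, and the median log2 fold change was 0.06. Smg8 (GRCm38 chr11:87077732-87086774, minus strand) encodes a subunit that, with SMG9, restrains the SMG1 kinase. Smg8 had 1354, 1438, 1467, 1175 and 1222 normalized counts in Dis3 cKO testes, against 1680, 1603, 1541, 1670 and 1718 in controls. Every cKO library was below every control library, and cKO libraries 4 and 5 were the lowest. Smg8 averaged 1331 ± 129.1 in cKO and 1642 ± 70.24 in control testes, a log2 fold change of -0.30 ± 0.08 (SE, adjusted p = 0.0265), or 0.811 of the control level. The call was lost without cKO library 4 or 5 or without control library 1, 2, 4 or 5 (adjusted p up to 0.0709, log2 fold change -0.34 to -0.26 over the 10 libraries left out in turn). In replicates 1 to 3 alone Smg8 was at -0.18 (adjusted p = 0.171), and in replicates 4 and 5 alone it was at -0.49 (adjusted p = 2.77e-04). The cKO libraries of replicates 4 and 5 had the lowest germ cell sums and their controls the highest. In those controls the high sums came from Dazl and Ddx4, while most other germ cell markers were lower than in controls 1 to 3. The difference between these clusters did not pass the threshold (interaction -0.32, adjusted p = 0.122), and the part of the germ cell content in the fall was not tested.

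Etf1 (chr18:34902785-34932007, minus strand) encodes eRF1, the release factor that ends translation and with which UPF1 works. Etf1 had 5832, 6053, 5881, 6060 and 5745 normalized counts in cKO testes, against 6992, 6565, 6298, 7282 and 6839 in controls. The groups did not overlap, and the cKO libraries were more alike than the controls. Etf1 averaged 5914 ± 138.9 in cKO and 6795 ± 379.8 in control testes, a log2 fold change of -0.20 ± 0.06 (SE, adjusted p = 0.0497), or 0.870 of the control level. It stood just inside the threshold: the call held without control library 3 (adjusted p = 0.0350) and was lost without any 1 of the other 9 libraries (adjusted p up to 0.118). Taken by cluster, Etf1 was at -0.16 in replicates 1 to 3 (adjusted p = 0.179) and at -0.25 in replicates 4 and 5 (adjusted p = 0.00599).

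Upf3b (chrX:37091678-37110322) had the largest positive log2 fold change of the 37 without passing the threshold. Its product links UPF2 to the exon junction complex. Upf3b had 3415, 2568, 2565, 3348 and 3016 normalized counts in cKO testes, against 2194, 2096, 2187, 2740 and 2715 in controls. Within each cluster the cKO libraries were higher, but cKO libraries 2 and 3 lay below controls 4 and 5, so that the groups overlapped. Means were 2982 ± 408.6 in cKO and 2386 ± 314 in control testes, a log2 fold change of 0.32 ± 0.11 (adjusted p = 0.0781). Each cluster fitted alone passed the threshold, at 0.40 for replicates 1 to 3 (adjusted p = 0.0333) and 0.23 for replicates 4 and 5 (adjusted p = 0.0284).

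The other 7 genes of that group were not called. UPF1, the helicase at the centre of NMD, and UPF2, its activator, had mRNA log2 fold changes of 0.07 and 0.04. The kinase gene Smg1 stood at 0.13, Smg9 at 0.09 and the endonuclease gene Smg6 at 0.12 (adjusted p = 0.212), whereas Smg5, which encodes an adaptor bound by phosphorylated UPF1, stood at -0.23 (adjusted p = 0.148).

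In the decapping group 0 of 7 genes were called, with a median of 0.02. Lsm1, which encodes the subunit that sets the cytoplasmic LSM1-7 ring apart from its nuclear counterpart, had the lowest p. Lsm1 (chr8:25785288-25803975) had 778.9, 830.8, 895.6, 841.9 and 859.5 normalized counts in cKO testes, against 1075, 1028, 870.8, 1077 and 984.1 in controls. Only control library 3 fell into the cKO range. Means were 841.3 ± 42.68 in cKO and 1007 ± 85.38 in control testes, a log2 fold change of -0.26 ± 0.08 (adjusted p = 0.0595), and without control library 3 it was -0.30 (adjusted p = 0.0270). With the cluster term Lsm1 was called lower at -0.26 (adjusted p = 0.0253). Dcp2, the decapping enzyme itself, stood at 0.13, its enhancers Edc3 and Edc4 at -0.19 and -0.11, and Ddx6 at 0.06. Xrn1, the only gene of the 5′ exonuclease group, stood at 0.10 (adjusted p = 0.529).

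Among the deadenylases, Pan3 encodes the adaptor that brings PAN2 to the poly(A) tail. Pan3 (chr5:147430161-147548502) had 4903, 4556, 4467, 4678 and 4915 normalized counts in cKO testes, against 4216, 4079, 4387, 3877 and 4113 in controls. Every cKO library was above every control library. Pan3 averaged 4704 ± 201.8 in cKO and 4134 ± 187.2 in control testes, a log2 fold change of 0.19 ± 0.06 (adjusted p = 0.0673). It was 0.22 without control library 3 (adjusted p = 0.0368), 0.13 in replicates 1 to 3 alone (adjusted p = 0.271) and 0.27 in replicates 4 and 5 alone (adjusted p = 0.00453). Its partner Pan2, the catalytic subunit, stood at 0.01.

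CCR4-NOT had 0 of 11 genes called and a median of -0.04, and its lowest p-values belonged to the pair whose proteins form a module at the N-terminal end of the CNOT1 scaffold. Cnot11 (chr1:39534992-39546889) had 2865, 2845, 2683, 2955 and 2711 normalized counts in cKO testes, against 3169, 3223, 3116, 3189 and 3076 in controls. The groups did not overlap, with means of 2812 ± 113.1 in cKO and 3155 ± 58.57 in control testes and a log2 fold change of -0.17 ± 0.06 (adjusted p = 0.0812). With the cluster term Cnot11 was called lower, also at -0.17 (adjusted p = 0.0318). Cnot10 (chr9:114585878-114640184) had 1261, 1172, 1356, 1283 and 1280 normalized counts in cKO testes, against 1400, 1372, 1308, 1639 and 1561 in controls. The groups overlapped in replicates 1 to 3 and were apart in replicates 4 and 5, where the log2 fold change was -0.31 (adjusted p = 0.0114). Over all libraries it was -0.20 ± 0.08 (1270 ± 66.01 in cKO and 1456 ± 138.3 in control testes, adjusted p = 0.133). The scaffold Cnot1 stood at 0.10, and Cnot2, Cnot3, Cnot4 and Cnot9 were between -0.05 and 0.09.

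The SKI complex and the ribosome rescue factors had 0 of 5 genes called. Skic8 (chr9:54714735-54734519) had 2364, 2202, 2141, 2406 and 2454 normalized counts in cKO testes, against 2653, 2553, 2228, 3195 and 3076 in controls. Control library 3 lay within the cKO range, and controls 4 and 5 were the highest of all 10 libraries. Skic8 averaged 2313 ± 135.1 in cKO and 2741 ± 395.2 in control testes, a log2 fold change of -0.24 ± 0.09 (adjusted p = 0.120), and without control library 3 it was -0.30 (adjusted p = 0.0391). With the cluster term Skic8 was called lower at -0.24 (adjusted p = 0.0204). Fitted alone, replicates 4 and 5 gave -0.36 (adjusted p = 8.28e-04) and replicates 1 to 3 gave -0.15 (adjusted p = 0.299). Skic2, the helicase of the complex, and Skic3 were at 0.02 and 0.03. Of the pair that splits stalled ribosomes, Hbs1l stood at 0.12 (adjusted p = 0.416) and Pelo at -0.15 (adjusted p = 0.468).

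**Figure D3:**
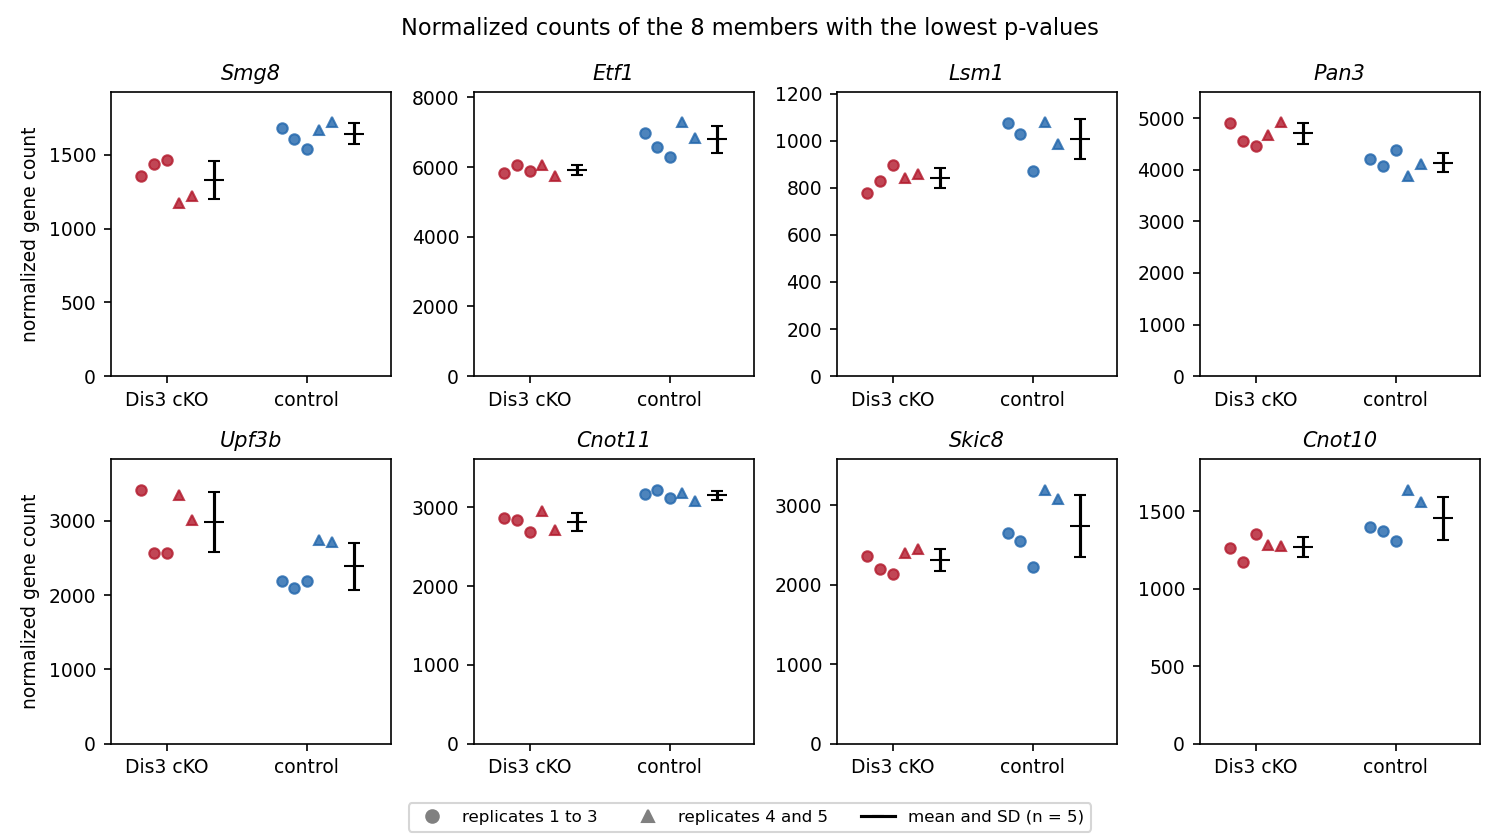
Normalized gene counts of the 8 members with the lowest p-values in each library, Dis3 cKO left and control right in every panel; round points are replicates 1 to 3 and triangular ones 4 and 5, and the mean with SD (n = 5) is beside each group. The groups are apart for Smg8, Etf1, Pan3 and Cnot11, while those of Lsm1, Upf3b, Skic8 and Cnot10 overlap; all axes start at 0.

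Where a complex holds either of 2 paralogs, the log2 ratio of their counts within a library shows whether their balance moved, with no scaling between libraries. The ratio of Upf3a to Upf3b was -0.205, 0.068, -0.016, -0.278 and -0.303 in cKO testes, against 0.168, 0.295, 0.205, -0.049 and 0.032 in controls. Its mean was -0.147 ± 0.164 in cKO and 0.130 ± 0.138 in control testes (SD, n = 5 each), a difference of -0.28 (exact permutation test, two-sided, p = 0.0397, adjusted p = 0.159 over 4 pairs). It was -0.27 in replicates 1 to 3 and -0.28 in replicates 4 and 5, and the 2 genes behind it stood at 0.05 for Upf3a and 0.32 for Upf3b. With 5 against 5 libraries the test has 252 arrangements, and the adjusted p did not pass.

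For the deadenylase pair of Cnot6 and Cnot6l, which encode alternative catalytic subunits of the EEP type, the log2 ratio was 0.497 ± 0.148 in cKO and 0.663 ± 0.104 in control testes. The difference was -0.17 (exact p = 0.0794, adjusted p = 0.159), and by cluster it was -0.04 (replicates 1 to 3) and -0.35 (replicates 4 and 5). Cnot6 itself stood at -0.04 and Cnot6l at 0.13 (adjusted p = 0.201). For the other catalytic pair, Cnot7 (-0.08) and Cnot8 (0.02), the log2 ratio was 1.61 ± 0.173 in cKO and 1.69 ± 0.279 in control testes (difference -0.08, exact p = 0.587, adjusted p = 0.603). For the decapping cofactors Dcp1a (0.02) and Dcp1b (0.07), it was 0.880 ± 0.137 in cKO and 0.928 ± 0.164 in control testes (difference -0.05, exact p = 0.603, adjusted p = 0.603).

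Because the libraries fell into 2 clusters, the genotype difference was also compared between them for each gene. The difference between clusters passed the threshold for 1 of the 37, Parn, against 4.58% of all tested genes (2.56% with a positive and 2.02% with a negative interaction). PARN is a poly(A)-specific ribonuclease that also trims the ends of several non-coding RNAs. Parn had 1502, 1504, 1441, 1485 and 1411 normalized counts in cKO testes, against 1442, 1373, 1454, 1804 and 1856 in controls. The cKO libraries were alike in both clusters, whereas controls 4 and 5 were higher than every other library. Parn thus stood at 0.06 in replicates 1 to 3 (adjusted p = 0.686) and at -0.33 in replicates 4 and 5 (adjusted p = 0.00621), and the interaction was -0.40 (adjusted p = 0.0404). The count of genes passing was 1 without cKO library 1 or control library 3 and 0 without any 1 of the other 8 libraries. Of the 37 genes, 24 had the same sign in both clusters.

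The second readout at these genes was PROMPTs, promoter upstream transcripts, which are short-lived RNAs made upstream of active promoters and degraded in the nucleus by the exosome. Reads were counted on the antisense strand in the 3000 bases before the start of each gene, for 30166 genes whose upstream region holds no other annotated gene. Of the 37 genes 19 have such a region, and for 17 it held a mean of at least 3 reads per library and was tested; the regions of Hbs1l and Upf3b were too sparse. Reads were few: the 19 regions together held 468 to 743 reads per cKO library and 308 to 426 per control library.

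All 17 PROMPTs had a log2 fold change above 0, with a median of 1.02, and 6 of 17 were called higher and 0 lower. These 6 are 35.3% of the 17. Of all 12345 PROMPTs tested, 13.6% were called higher, 0.0486% lower and 77.8% were above 0. Among 4665 PROMPTs of protein-coding genes with mRNA counts at least as high as the least counted of the 37, 28.4% were called higher, 0.0643% lower and 88.6% were above 0, and the median log2 fold change was 0.9995. The share and the median at the decay genes were near those at other expressed coding genes. At an unadjusted p under 0.05, 10 of the 17 were higher and 0 lower, against 21.0% and 0.284% of all PROMPTs tested. The groups did not overlap for 6 of the 17, all with cKO libraries higher (11.1% of all PROMPTs tested, and 0.0891% with cKO libraries lower). For the unadjusted and the non-overlap counts the shares among the 4665 were not computed. These counts thus give no comparison with other expressed coding genes.

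**Figure D4:**
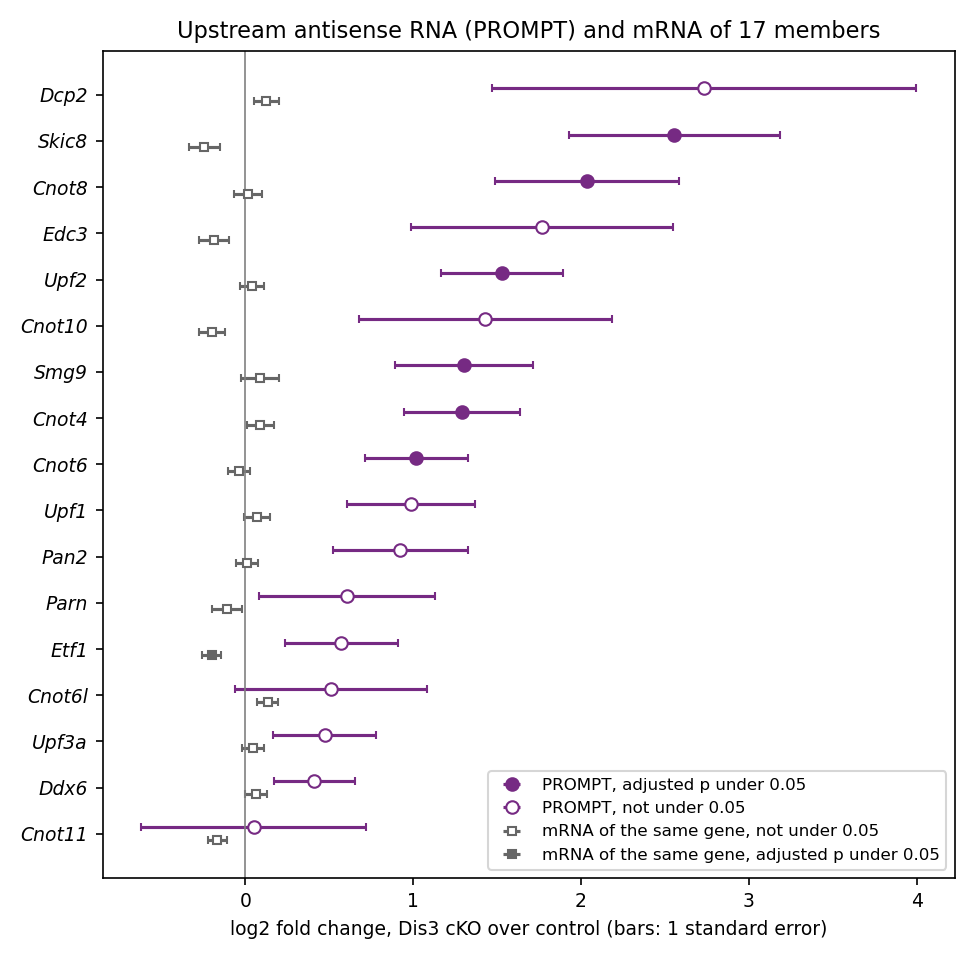
Log2 fold change, Dis3 cKO over control, with 1 standard error, of the upstream antisense RNA (circles) and of the mRNA (squares) of the 17 genes whose PROMPT was tested, with filled symbols for an adjusted p under 0.05. All 17 circles lie above 0 and 6 of them are filled, while the squares stay between -0.24 and 0.13.

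The PROMPT of Skic8 (chr9:54734520-54737519) had the largest called difference. It had 24, 14, 32, 8 and 11 reads in cKO libraries, against 3, 3, 4, 1 and 7 in control libraries. Scaled to the gene counts, it ran from 8.86 to 35.8 in cKO and from 0.96 to 6.43 in control libraries, and the log2 fold change was 2.56 ± 0.63 (SE, adjusted p = 7.84e-04). After scaling every cKO library was above every control library, and the cKO libraries 1 and 3 were the highest.

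The PROMPT of Cnot8 (chr11:58101153-58104152) had 23, 24, 34, 11 and 12 reads in cKO libraries, against 8, 4, 4, 2 and 12 in control libraries. Control library 5 was the highest control, and after scaling the groups did not overlap, with a log2 fold change of 2.04 ± 0.55 (adjusted p = 0.00255). Fitted by cluster, the PROMPTs of Skic8 and Cnot8 passed in replicates 1 to 3 (log2 fold change 3.07 and 2.59) and not in replicates 4 and 5 (1.496 and 0.981, adjusted p = 0.613 and 0.697), and the difference between clusters was not tested. The PROMPT of Upf2 (chr2:5948469-5951468), whose region ends inside the sequence printed above, had 50, 44, 52, 51 and 27 reads in cKO libraries, against 12, 35, 28, 4 and 15 in control libraries. Here the groups overlapped, since control library 2 exceeded cKO library 5 after scaling, and the log2 fold change was 1.53 ± 0.36 (adjusted p = 4.28e-04). Upf2 was called in each cluster alone and with any library left out.

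The PROMPT of Smg9 (chr7:24396619-24399618) had 27, 32, 31, 34 and 30 reads in cKO libraries, against 15, 25, 20, 7 and 8 in control libraries. The cKO libraries were close together and all above the controls, of which 4 and 5 were the lowest. The log2 fold change was 1.30 ± 0.41 (adjusted p = 0.0154), and the call was lost without control library 4 or 5. The PROMPT of Cnot4 (chr6:35133725-35136724) had 46, 63, 49, 43 and 36 reads in cKO libraries, against 23, 33, 19, 16 and 24 in control libraries, a log2 fold change of 1.29 ± 0.35 (adjusted p = 0.00257). The PROMPT of Cnot6 (chr11:49712724-49715723) had 63, 61, 65, 66 and 57 reads in cKO libraries, against 44, 51, 51, 18 and 23 in control libraries, a log2 fold change of 1.02 ± 0.31 (adjusted p = 0.00959). After scaling, neither of these PROMPTs overlapped between the groups, and the call for Cnot6 was lost without control library 4. The PROMPTs of Smg9 and Cnot6 passed in replicates 4 and 5 alone (log2 fold change 2.34 and 1.84, adjusted p = 0.0404 and 0.0112) and not in replicates 1 to 3 (0.85 and 0.65, adjusted p = 0.280 and 0.201). That of Cnot4 passed in replicates 1 to 3 alone (1.32, adjusted p = 0.00427) and not in replicates 4 and 5 (1.24, adjusted p = 0.189).

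**Figure D5:**
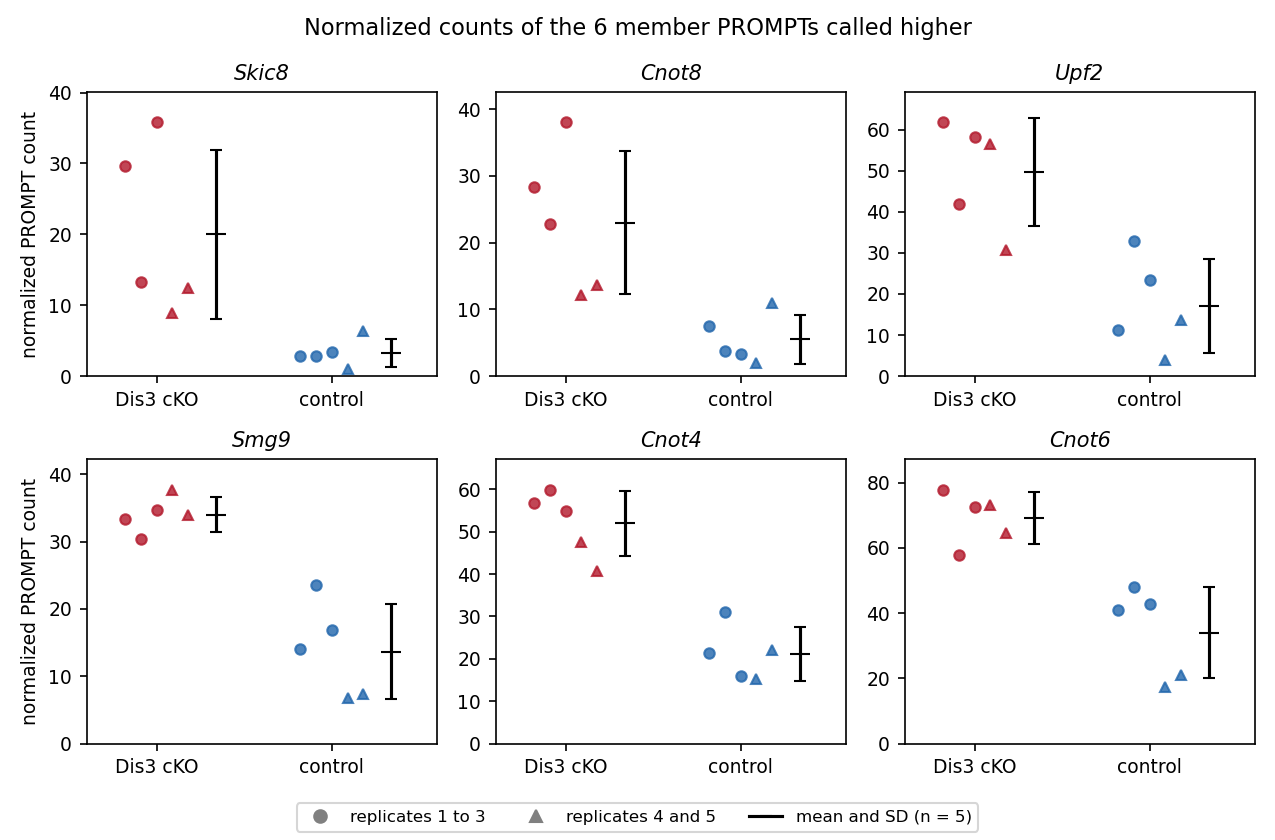
Normalized PROMPT counts in each library for the 6 genes whose PROMPT was called higher, Dis3 cKO left and control right in every panel; round points are replicates 1 to 3 and triangular ones 4 and 5, and the mean with SD (n = 5) is beside each group. The groups are apart in 5 panels and overlap for Upf2; for Skic8 the cKO points run from 8.86 to 35.8 and the control points from 0.96 to 6.43.

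The 6 genes with a called PROMPT had no called change in mRNA in the fit without the cluster term (Skic8 was lower with it): their gene log2 fold changes were -0.24 for Skic8, 0.02 for Cnot8, 0.04 for Upf2, 0.09 for Smg9, 0.09 for Cnot4 and -0.04 for Cnot6. Upf1 came next, with a PROMPT log2 fold change of 0.99 and groups that did not overlap (adjusted p = 0.0648). The Upf1 PROMPT was called with DESeq2 (adjusted p = 0.0223) and in edgeR with the replicate block (0.0425) or the cluster term (0.0305). Etf1, whose mRNA fell, had a PROMPT at 0.57 (adjusted p = 0.342). Some uncalled PROMPTs rested on very few reads, such as that of Dcp2, with 5, 11, 2, 8 and 0 reads in cKO libraries and 1, 2, 1, 0 and 0 in control libraries.

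The genes that work with this machinery were followed in lists of cofactors. Their counts stand beside 4.42% called higher and 3.48% called lower among all tested genes (6.01% and 5.13% of the 10516), so that 0 or 1 called gene in a list of this length is near the background. Of 14 further decapping and P-body genes, 1 rose and 1 fell. Pnrc1, a decapping coactivator, had 5297-5647 normalized counts in cKO testes and 4585-4819 in controls (log2 fold change 0.20, adjusted p = 0.0351). Lsm4, a subunit shared by the cytoplasmic and nuclear LSM rings, had 1855-2566 in cKO testes and 2682-3725 in controls (-0.53, adjusted p = 0.0116). For both genes the groups did not overlap. Lsm4 was called with any library left out, whereas Pnrc1, with 1 library left out, was called only without control library 3 (adjusted p up to 0.0910).

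Of 12 further NMD and exon junction genes, 0 rose and 1 fell: Ruvbl1, an AAA+ ATPase with several cellular roles, had 1266-1429 normalized counts in cKO testes and 1502-1907 in controls (-0.33, adjusted p = 0.0295). Its call was lost without cKO library 1, 3, 4 or 5 or control library 4 or 5 (adjusted p up to 0.0780), and it stood at -0.17 in replicates 1 to 3 (adjusted p = 0.201) and at -0.56 in replicates 4 and 5 (adjusted p = 5.12e-05). Of 20 genes for poly(A) binding proteins and recruiters of deadenylases, 1 rose and 1 fell, while DESeq2 called 4 higher (Tnrc6b, Tnrc6c, Samd4b and Zfp36) and 1 lower. DESeq2 also called more genes over the whole table, 1307 higher and 931 lower against 885 and 698 with edgeR. The edgeR shares above are therefore no background for the DESeq2 counts. Tnrc6b, the scaffold through which microRNA complexes reach CCR4-NOT and PAN2-PAN3, had 11965-13868 in cKO testes and 8957-11285 in controls (0.44, adjusted p = 0.00462). Btg3, of the BTG family that binds the CNOT7 and CNOT8 deadenylases, had 150.6-219.3 in cKO testes and 257.3-389.3 in controls (-0.65, adjusted p = 0.0155). Both were called with any library left out, but Btg3 was at -0.85 in replicates 1 to 3 (adjusted p = 0.0108) and at -0.36 in replicates 4 and 5 (adjusted p = 0.152), where its call was lost. Of 5 genes for 3′ uridylation and decay of uridylated RNA, 0 were called.

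Transcripts described as targets of NMD in mammalian cells were also followed. Of 10 such genes 0 were called in either direction; at an unadjusted p under 0.05, 4 were lower and 0 higher (12.1% and 11.8% of all tested genes, 16.7% and 15.2% of the 10516), and DESeq2 called 1 lower, Zfas1. Their median log2 fold change was -0.27, against -0.01 over all tested genes, and 7 were below 0. The lowest p belonged to Zfas1, a snoRNA host transcript, with 476.5-514.1 normalized counts in cKO testes and 485.4-710.7 in controls (-0.36, adjusted p = 0.0521).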

How the data were processed

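The authors sequenced rRNA-depleted total RNA of 10 mice (TECAN Universal kit, strand-selected). Per the labels, cutadapt, HISAT2 and featureCounts (1.6.4 in the headers) were used for trimming, alignment and counting. Both deposited tables hold raw read counts per the file headers, which name GENCODE M18; the labels give build GRCm38.p5, whereas the study's methods name GRCm39. PROMPT counts by the authors are antisense. Symbols came from GENCODE M39 by gene ID (50129 of 54232). The replicates are separate mice.

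Counts were tested with edgeR 4.0.16 in R 4.3.3 (filterByExpr, minimum count 10, TMM; quasi-likelihood; Benjamini-Hochberg over all genes). PROMPTs with a mean of at least 3 counts used the library sizes and TMM factors of the genes. Normalized counts are scaled to the mean effective library size. Alternatives were DESeq2 1.42.0, its size factors in edgeR, no filter, a PROMPT minimum of 1, replicate number as a block, library cluster as a term, each cluster alone and each library left out. Every-library values are given for called members and those of lowest p up to 8; PROMPTs, and up to 4 genes of each further list, are named where called. Members and lists were chosen with earlier results of these data known. Scripts were tested on simulated data with log2 fold changes of 0.5, 1 and 2. The gene fit recovered 34.33%, 69.23% and 92.19% of them, over genes of all levels tested. The PROMPT fit recovered 0%, 0% and 26.56%. A gene or PROMPT that was not called may therefore still have changed. The simulation changed few PROMPTs and in both directions, whereas 1673 of 12345 were called higher here. Its PROMPT recovery may therefore not be that of these data. Depth was 28538849-41104912 gene counts and 116141-256460 PROMPT counts per library. No library repeated another of its group: the lowest chi-square over its degrees of freedom was 4.358. No per-sample columns were left unused.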

Additional observations from a re-analysis of the deposited data

Results flagged for a closer look

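In 116 groups of 5 values (74 of gene counts, 34 of PROMPT counts and 8 of paralog ratios), 4 held a library far from the other 4, and 1 in 20 such groups, here 5.8, is what chance gives. Dcp2 had 3552 normalized counts in cKO library 1 and Edc3 had 1161 in cKO library 3, both above the rest of their group. The Cnot10 PROMPT had 14.1 normalized counts in control library 2, and without that library its log2 fold change was 2.71 (adjusted p = 0.0359). The Cnot11 PROMPT had 23.0 in control library 4.

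Parn stood out because its genotype difference changed between the library clusters, by -0.40 on the log2 scale (adjusted p = 0.0404, edgeR); leaving out each library in turn gave 0 or 1 such genes among the 37.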

How the results depend on the processing

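Dis3 was lower throughout (log2 fold change -1.67 to -1.58 over the libraries left out). With DESeq2, 2 decay genes were called higher (Pan3 and Upf3b) and 2 lower; genome-wide 1307 genes were higher and 931 lower. With DESeq2 size factors in edgeR or with no filter on low counts, 1 was lower, against 617 and 750 genes lower over the whole table. With each library left out in turn, 0 to 4 were lower and 0 to 1 higher, against 366 to 806 genes lower and 516 to 1173 higher over the whole table.

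Whether the replicate numbers pair the samples was not settled. Deviations of the same number correlated at 0.096, 0.083, 0.183, 0.182 and 0.135 between the genotypes. Their mean was 0.136, against 0.101 for different numbers of the same cluster. Of 5 cKO libraries, 3 correlated best with their own number. With the replicate block, 2 decay genes were higher (Pan3 and Upf3b), 4 lower (Smg8, Etf1, Cnot11 and Skic8), and 1489 and 1337 genes were called higher and lower; with library cluster as a term these were 2, 5, 1772 and 1669. Replicates 1 to 3 alone gave 2 higher (Smg1 and Upf3b) and 0 lower (976 and 557 genes in all). Replicates 4 and 5 alone gave 3 higher and 7 lower (2361 and 2360 genes in all). Member PROMPTs called higher numbered 3 in replicates 4 and 5 alone, 5 in replicates 1 to 3 and 4 to 7 with a library left out. With DESeq2, the replicate block or the cluster term they numbered 7, with Upf1 added. The share of all PROMPTs called is not given for these settings, so these counts have no background beside them. The Cnot6 to Cnot6l ratio differed by -0.35 in replicates 4 and 5 alone and by -0.22 to -0.13 with a library left out, and the Upf3a to Upf3b ratio by -0.33 to -0.24. The difference between clusters was called for 0 to 1 genes. The cause of these shifts was not tested.

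Uncalled log2 fold changes near 0 changed sign. In replicates 1 to 3 alone these were Skic3 (-0.0171), Cnot6 (0.0568), Cnot7 (0.0084), Cnot8 (-0.0107), Parn (0.0585) and Dcp1a (-0.0464). In replicates 4 and 5 alone these were Pelo (0.105), Pan2 (-0.0688), Ddx6 (-0.0068), Upf2 (-0.0695), Upf3a (-0.0522), Smg1 (-0.0131) and Smg9 (-0.179). With no filter on low counts these were Cnot8 (-0.0077), Pan2 (-0.0129) and Dcp1a (-0.0067). With a library left out, Cnot8 ran between -0.0228 and 0.0786, Skic2 ran between -0.0236 and 0.0766, Pan2 ran between -0.0232 and 0.04, Dcp1a ran between -0.043 and 0.0816 and Skic3 ran between -0.0515 and 0.0717. Of 629 such values over the 37 genes 555 kept direction and side of the threshold.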
